A study of Homo sapiens with 10 samples.

Results

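Redox defence and detoxification enzymes were examined in DU145 cells with and without a short hairpin RNA against the transcription factor SOX4. The members were the genes of the deposited table whose symbols belong to the glutathione transferases (GST and MGST), glutathione peroxidases (GPX), glutathione synthesis and recycling (GCLC, GCLM, GSS, GSR), peroxiredoxins and sulfiredoxin, the thioredoxin family (all symbols that begin with TXN), superoxide dismutases and catalase, NQO quinone reductases and HMOX heme oxygenases, AKR1 aldo-keto reductases, aldehyde dehydrogenases, cytochromes P450 and UDP-glycosyltransferases. CYP51A1, a sterol synthesis enzyme, was left out by the same rule. This gave 90 genes of the 13527 features in the table, in 11 families, by symbol alone. A few of the TXN symbols are named for their sequence and not for a redox role; TXNL4A, for example, is a part of the spliceosome.

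DU145 is an established human prostate carcinoma cell line derived from a brain metastasis. RNA-seq libraries were made from poly-A RNA of 3 samples carrying a control hairpin (shCon) and 3 carrying the hairpin against SOX4 (shSOX4), grown alike in medium with serum, and no agent that induces detoxification enzymes is named in the labels. All 6 libraries thus come from 1 parental line and carry a hairpin, and no hairpin sequence is given in the labels. Whether the replicate libraries were grown apart is not stated. The p-values therefore rest on library-to-library variation that could be technical only. The series was made to ask what SOX4 does in the differentiation of prostate cancer cells.

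Cells remove hydrogen peroxide mainly through peroxiredoxins, which are recharged by thioredoxin and thioredoxin reductase, and through glutathione peroxidases, which use glutathione that GSR then returns to its reduced form. Reactive drugs, lipids and aldehydes are handled in steps: cytochromes P450 oxidise them, aldo-keto reductases and aldehyde dehydrogenases reduce or oxidise their carbonyl groups, and glutathione transferases and UDP-glycosyltransferases attach a carrier group. Many of these genes are textbook targets of NRF2, the transcription factor that KEAP1 holds in check, and CYP1A1 and CYP1B1 are textbook targets of the aryl hydrocarbon receptor. GSTP1, often silenced by methylation in prostate cancer, and the AKR1C enzymes, which act on steroids, are the members best known in this tissue.

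Levels are given as CPM (read counts relative to the library total, after TMM scaling for library composition) in shCon 1, 2 and 3 and then shSOX4 1, 2 and 3. SOX4 itself stood at 12.9, 10.1 and 8.48 CPM in the shCon libraries and 4.55, 6.44 and 6.01 CPM in the shSOX4 libraries, so the groups did not overlap (log2 fold change -0.89, SE 0.236, edgeR adjusted p = 0.0111). Without shCon 1 the log2 fold change was -0.71 with an edgeR adjusted p of 0.0598. Library totals ran from 31189910 to 43361609 counts, of which the members took 1.23 to 1.37%. On the second principal component (15.7% of the variance, against 66.3% on the first, which set the groups apart), shCon 3 and shSOX4 1 lay apart from the other 4 libraries. Of 6 epithelial markers all had a row, and their summed level, nearly all keratin, was 4474 to 7179 CPM in shCon and 8887 to 10113 CPM in shSOX4. KRT8 and KRT18 rose (log2 fold changes 1.33 and 1.03, edgeR adjusted p = 3.98e-05 and 0.000406), CDH1 and EPCAM fell (-1.28 and -0.83, edgeR adjusted p = 0.0029 and 0.0279), and KRT19 and KRT7 were not called (-0.39 and 0.06). Fibroblast markers had a row for 3 of 5 (summed 1.69 to 2.48 CPM in shCon and 9.56 to 16.0 CPM in shSOX4, with LUM at 0 in shCon 3), and of 4 endothelial markers only CDH5 had one (0.525 to 0.942 and 4.70 to 6.62 CPM). LUM, PDGFRB, COL1A1 and CDH5 were all called higher, LUM and CDH5 having entered the table through the shSOX4 group alone. PDGFRB, at 0.416, 1.05 and 0.612 CPM in shCon and 3.78 to 4.58 CPM in shSOX4, also needed the shSOX4 libraries to enter it. Leukocyte markers had a row for 2 of 5 (summed 97.4 to 117 CPM in shCon and 46.3 to 56.5 CPM in shSOX4, nearly all CD68), hepatocyte markers for 1 of 4 (SERPINA1, 47.1 to 55.5 and 21.0 to 23.7 CPM), and androgen-responsive prostate markers for 2 of 4 (summed 8.37 to 14.8 CPM in shCon and 9.15 to 14.1 CPM in shSOX4). Their part in the results that follow was not tested, and in bulk RNA fewer cells of a type and less RNA per cell cannot be told apart.

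Of the 90 members, 16 rose (17.8%, against 17% of all features) and 20 fell (22.2%, against 15.8%) at an edgeR quasi-likelihood adjusted p under 0.05, which is 40% called against 32.8% of all features. All 90 members passed the filter on low counts, and 85 had at least 1 CPM, here before TMM scaling, in every library. On that unscaled measure GSTT2 and CYP24A1 reached 1 CPM in the shSOX4 libraries only and so entered the table through the group where they were high. AKR1C2 and CYP4V2 reached it in all 3 shCon libraries and in 1 shSOX4 library, and TXNDC16 in 2 and 3. The share of members called was near the background on the upper side and somewhat above it on the lower side, and no test of that difference was made. Changes of at least 2-fold were seen in 6 members upward (6.67%, against 7.97% of all features) and in 6 downward (6.67%, against 5.27%). The 3 shCon and 3 shSOX4 values did not overlap in 48 members (53.3%, against 47% of all features), 20 of them higher in shSOX4 (22.2%, against 23.1%) and 28 lower (31.1%, against 23.9%). The median log2 fold change was -0.06 over the members and -0.01 over all features. Without shCon 1 the members that rose numbered 10, without shCon 2 there were 9 and without shSOX4 3 there were 8, when the share of all features that rose was 14.7%, 13.3% and 12.4%. Without both shCon 3 and shSOX4 1, 20 members rose, beside 21.4% of all features. The number that fell was between 15 and 22 in these fits, in which 9.53% to 19.5% of all features fell.

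The families differed in the direction of their called members. Over all features 17% rose and 15.8% fell, and no family was tested against these shares. Among the peroxiredoxins and sulfiredoxin 5 of 7 rose and none fell, and in the thioredoxin family 2 of 16 rose and none fell. In glutathione synthesis and recycling 2 of 4 fell, among aldo-keto reductases 2 of 7 fell and among aldehyde dehydrogenases 5 of 14 fell, with none rising in these families. Calls went both ways among glutathione transferases (5 up and 3 down of 15), glutathione peroxidases (1 and 1 of 5), quinone reductases and heme oxygenases (1 and 1 of 4) and cytochromes P450 (2 and 6 of 14). None of the 3 superoxide dismutase and catalase genes was called, nor was UGT8, the only UDP-glycosyltransferase in the table. Family medians of the log2 fold change ran from -0.75 for the cytochromes P450 to 0.47 for the peroxiredoxins and sulfiredoxin.

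**Figure D1:**
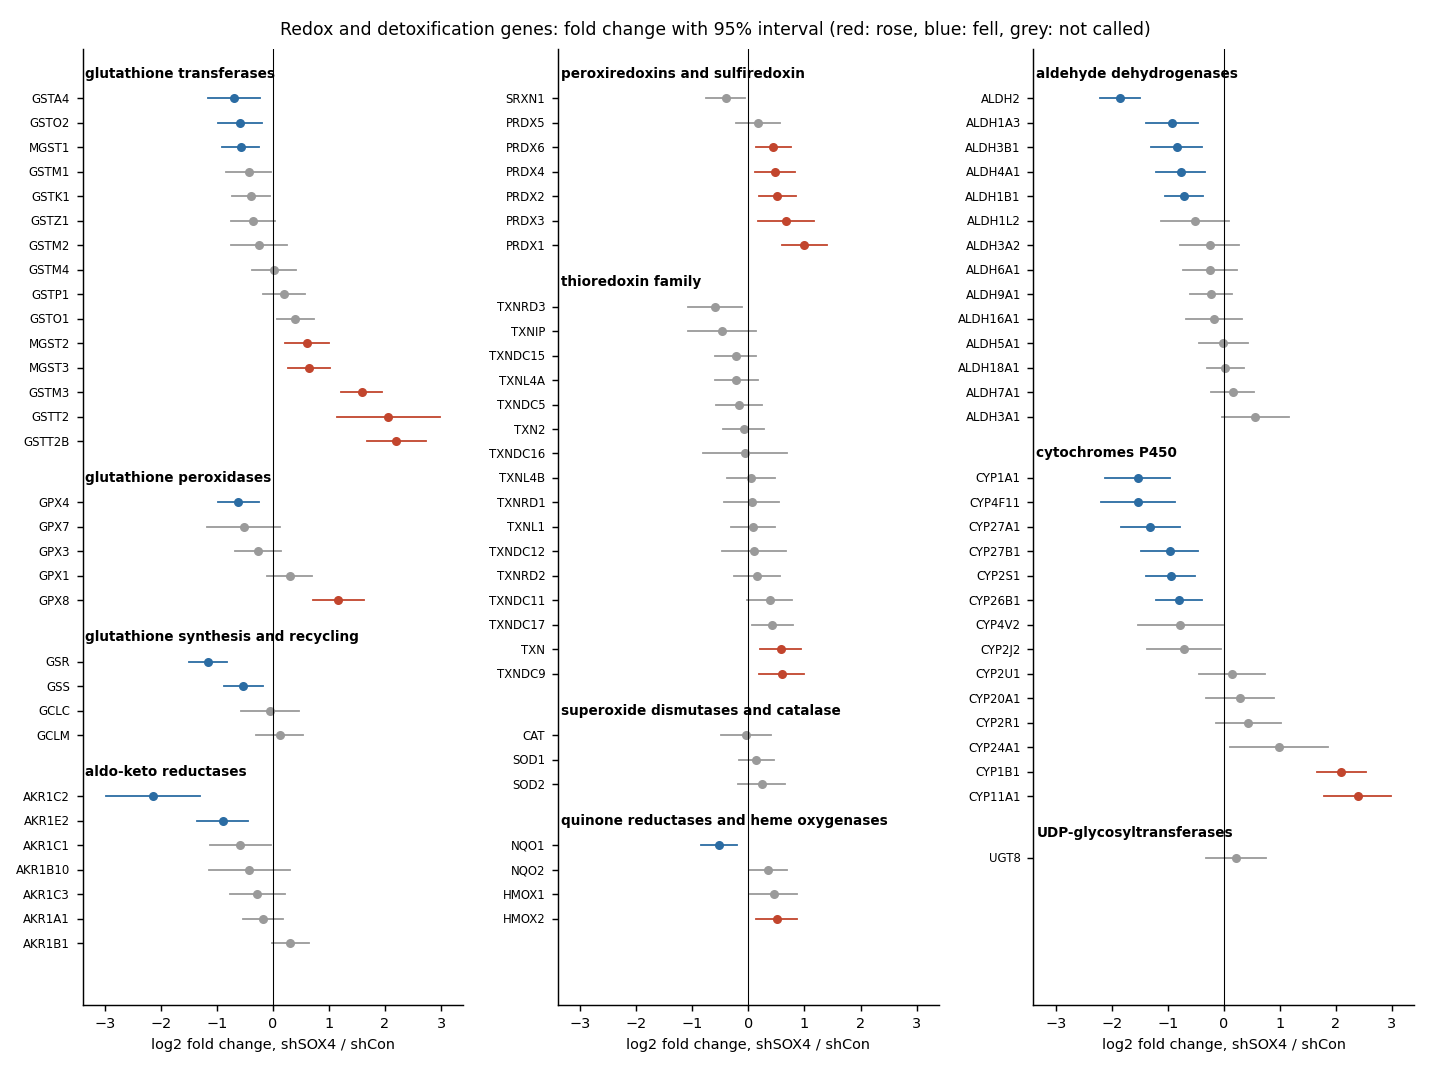
Log2 fold change of shSOX4 against shCon (x axis) for each of the 90 members, grouped by family, with the 95% confidence interval as a line, 3 libraries per group. Red points rose, blue points fell and grey points were not called. The 5 called peroxiredoxins lie to the right of 0 and the 5 called aldehyde dehydrogenases to the left, while the cytochromes P450 spread from -1.54 to 2.38.

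Of the 6 peroxiredoxins, thiol enzymes that reduce peroxides, 5 rose and the remaining one was not called. PRDX1, a cytosolic peroxiredoxin (ENSG00000117450), measured 536, 507 and 406 CPM in the shCon libraries and 726, 977 and 1184.5 CPM in the shSOX4 libraries. Every shSOX4 library lay above every shCon library, with shSOX4 3 highest and shCon 3 lowest (log2 fold change 0.99, SE 0.187, edgeR adjusted p = 0.00144). PRDX2, the other main cytosolic form, measured 209.8, 223 and 268 CPM in shCon and 345, 316 and 342 CPM in shSOX4. Its groups were apart too, by less (log2 fold change 0.52, SE 0.155, edgeR adjusted p = 0.0211). PRDX3, the mitochondrial form, measured 143, 110.4 and 73.7 CPM in shCon and 128, 183 and 209.9 CPM in shSOX4, so that shSOX4 1 lay within the shCon range (log2 fold change 0.67, SE 0.233, edgeR adjusted p = 0.0394). PRDX4, the form of the endoplasmic reticulum, measured 188, 236.5 and 236 CPM in shCon and 336, 265 and 316 CPM in shSOX4, and PRDX6, which uses glutathione, measured 223, 214 and 226 CPM in shCon and 290.1, 295 and 317 CPM in shSOX4. Both sets of values were separate between the groups (log2 fold changes 0.47 and 0.45, edgeR adjusted p = 0.0387 and 0.0303). PRDX5 had the highest level per length of the family, a mean of 991 FPKM in shCon and 1146 FPKM in shSOX4. It measured 779, 914 and 1119 CPM in shCon and 1323, 979.8 and 863 CPM in shSOX4, with overlapping groups (log2 fold change 0.17, SE 0.185, edgeR adjusted p = 0.5, 95% interval -0.22 to 0.57). SRXN1, sulfiredoxin, which repairs over-oxidised peroxiredoxins, measured 182, 201 and 192 CPM in shCon and 122, 141 and 171 CPM in shSOX4. That made it lower in all 3 shSOX4 libraries without a call (log2 fold change -0.41, SE 0.165, edgeR adjusted p = 0.0714).

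Summed per length over the 7 genes, the peroxiredoxins and sulfiredoxin stood at 2033, 2165 and 2099 FPKM in the shCon libraries and 2973.5, 2947 and 2948 FPKM in the shSOX4 libraries. The 3 shSOX4 sums were nearly equal, although PRDX1 was highest in shSOX4 3 and PRDX5 highest in shSOX4 1. FPKM was not rescaled between libraries. Its sum over all features was also higher in shSOX4, at 605487.2 to 630190.8 against 560547.5 to 590633.5 in shCon. PRDX1 was called in each fit with 1 library left out. The count of rises in the family was 2 when shCon 1 was left out, and PRDX1 was the only rise when shCon 2, shSOX4 2 or shSOX4 3 was. In the fits where they were not called, PRDX2 had log2 fold changes of 0.44 to 0.55, edgeR adjusted p from 0.057 to 0.0912, and PRDX3 had 0.46 to 0.68, edgeR adjusted p from 0.0626 to 0.163. PRDX4 had 0.37 to 0.57, edgeR adjusted p from 0.0562 to 0.133, and PRDX6 had 0.42 to 0.46, edgeR adjusted p from 0.0628 to 0.127. PRDX3 was not called on log2(FPKM + 1) either (0.69, limma adjusted p = 0.0647), nor with scaling by the total count (0.65, edgeR adjusted p = 0.0789). Without shSOX4 3, SRXN1 was also called (log2 fold change -0.54, edgeR adjusted p = 0.046).

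**Figure D2:**
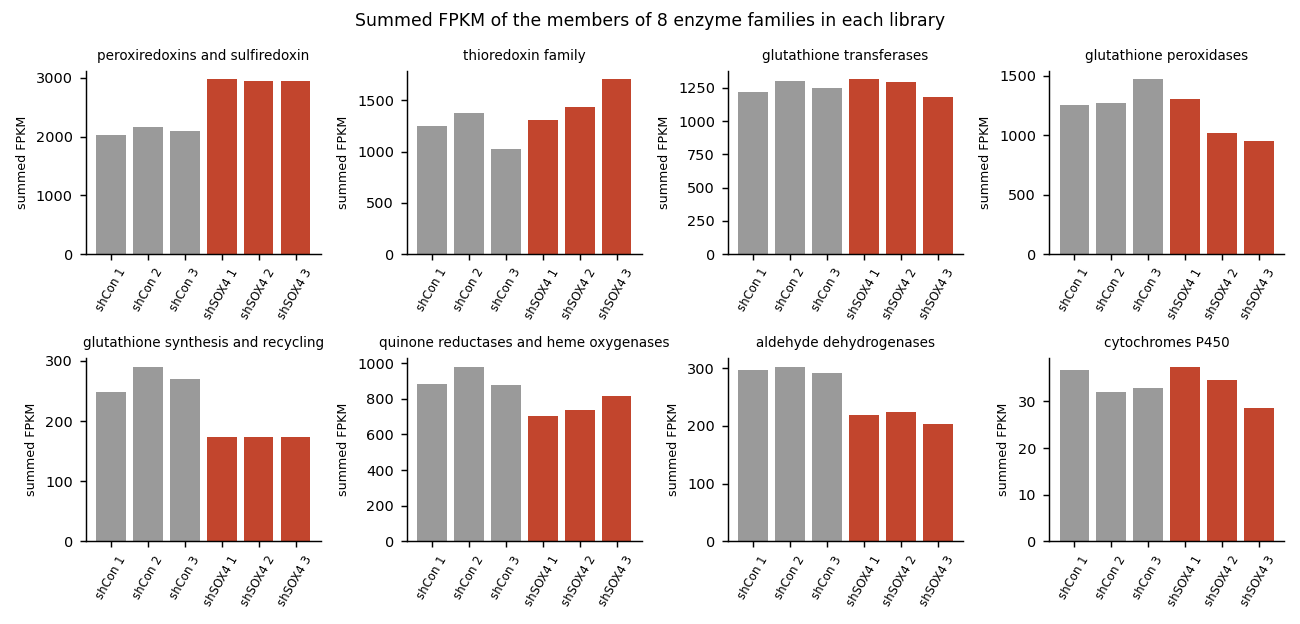
Summed FPKM (y axis, from 0) of the members of 8 enzyme families in each of the 6 libraries, shCon in grey and shSOX4 in red. FPKM was not rescaled between libraries, and its sum over all features was higher in every shSOX4 library than in every shCon library. Peroxiredoxins and sulfiredoxin summed to 2033 to 2165 FPKM in shCon and 2947 to 2974 in shSOX4, glutathione synthesis and recycling to 248 to 290 and 173 to 174, and aldehyde dehydrogenases to 291 to 303 and 204 to 223; the groups overlapped for the thioredoxin family, glutathione transferases, glutathione peroxidases and cytochromes P450.

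Thioredoxin itself, TXN, the small protein that hands electrons to peroxiredoxins, measured 431, 475 and 344 CPM in the shCon libraries and 559, 571 and 738 CPM in the shSOX4 libraries. All 3 shSOX4 values were above all 3 shCon values (log2 fold change 0.58, SE 0.172, edgeR adjusted p = 0.0198). TXN also had the highest level per length of its family (mean 449 FPKM in shCon and 669.6 FPKM in shSOX4). The call was absent without shSOX4 3 (log2 fold change 0.45, edgeR adjusted p = 0.102). TXNDC9, a thioredoxin-domain protein, measured 21.6, 24.9 and 22.1 CPM in shCon and 37.0, 28.2 and 37.9 CPM in shSOX4, again without overlap (log2 fold change 0.59, SE 0.187, edgeR adjusted p = 0.0265). It was not called without shCon 1, shCon 2, shSOX4 1 or shSOX4 3 (log2 fold changes 0.52 to 0.66, edgeR adjusted p from 0.0517 to 0.096), so 1 member of the family rose in the first 3 of these fits and none without shSOX4 3. On log2(FPKM + 1) TXNDC9 was not called (0.46, limma adjusted p = 0.0577).

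None of the 3 reductases that recharge thioredoxin was called by edgeR with all libraries. TXNRD1, the cytosolic thioredoxin reductase, measured 971, 1019 and 649 CPM in the shCon libraries and 599, 959 and 1189.5 CPM in the shSOX4 libraries. Here the lowest shCon library was shCon 3 and the lowest shSOX4 library was shSOX4 1, the same libraries that stood apart on the second component, and the group means were close (log2 fold change 0.06, SE 0.228, edgeR adjusted p = 0.866, 95% interval -0.43 to 0.55). TXNRD2, the mitochondrial reductase, measured 209, 263 and 345 CPM in shCon and 332, 257 and 319 CPM in shSOX4 and also overlapped (log2 fold change 0.15, SE 0.19, edgeR adjusted p = 0.567). TXNRD3 measured 14.4, 13.6 and 9.10 CPM in shCon and 7.07, 8.67 and 8.75 CPM in shSOX4. It was lower in all 3 shSOX4 libraries just short of the threshold (log2 fold change -0.60, SE 0.226, edgeR adjusted p = 0.0541), and it was called as lower without shCon 3 (-0.78, edgeR adjusted p = 0.0123) and by DESeq2 (-0.60, DESeq2 adjusted p = 0.033). TXNIP, the inhibitor that binds thioredoxin, measured 19.8, 9.11 and 9.10 CPM in shCon and 9.71, 9.47 and 8.24 CPM in shSOX4; shCon 1 was the only library clearly above the rest (log2 fold change -0.47, SE 0.282, edgeR adjusted p = 0.208), and without it the log2 fold change was 0.0062. The remaining 10 members of the family, among them mitochondrial TXN2 (115.5, 125 and 160.5 CPM in shCon and 142, 119 and 117 CPM in shSOX4) and the disulfide isomerase relative TXNDC5 (434, 413 and 329 CPM in shCon and 267, 332 and 448.5 CPM in shSOX4), had log2 fold changes from -0.23 to 0.42, none called. TXNDC16 was at 1.03 to 1.55 TMM-scaled CPM in the 6 libraries. On log2(FPKM + 1) TXNDC17 was called (0.42 by the counts and 0.46 on that scale, limma adjusted p = 0.0482).

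Among the 4 genes of glutathione synthesis and recycling, the recycling enzyme changed by the largest fold. GSR, glutathione reductase (ENSG00000104687), measured 252, 283 and 254 CPM in the shCon libraries and 108.5, 108.5 and 135 CPM in the shSOX4 libraries. The highest shSOX4 value lay far under the lowest shCon value (log2 fold change -1.16, SE 0.16, edgeR adjusted p = 0.000132), and the call was made in each fit with 1 library left out (log2 fold changes between -1.27 and -1.10 over all fits run). GSS, the second enzyme of glutathione synthesis, measured 304, 340.5 and 401 CPM in shCon and 267, 221.5 and 235 CPM in shSOX4. The groups did not overlap, but the step was smaller (log2 fold change -0.53, SE 0.162, edgeR adjusted p = 0.0221), and the call was absent without shCon 2, without shSOX4 2 and without shSOX4 3 (-0.55 to -0.47, edgeR adjusted p from 0.0587 to 0.113). GSS had the highest level per length of the family, with means of 176 FPKM in shCon and 123 FPKM in shSOX4. The rate-limiting first step of synthesis is carried out by glutamate-cysteine ligase, made of the catalytic subunit GCLC and the modifier GCLM. GCLC measured 39.7, 38.8 and 24.6 CPM in shCon and 22.4, 40.1 and 36.4 CPM in shSOX4. Its low values were in shCon 3 and shSOX4 1, and the groups overlapped (log2 fold change -0.06, SE 0.241, edgeR adjusted p = 0.869, 95% interval -0.58 to 0.46). GCLM measured 32.8, 36.4 and 30.8 CPM in shCon and 29.5, 33.3 and 45.9 CPM in shSOX4 and overlapped as well (log2 fold change 0.12, SE 0.198, edgeR adjusted p = 0.667, 95% interval -0.30 to 0.54).

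Among glutathione peroxidases, GPX8, a membrane protein of the endoplasmic reticulum, measured 19.8, 14.5 and 11.5 CPM in the shCon libraries and 36.1, 33.8 and 32.9 CPM in the shSOX4 libraries. The lowest shSOX4 library stood well above the highest shCon library (log2 fold change 1.17, SE 0.213, edgeR adjusted p = 0.00116). GPX4, which reduces lipid peroxides in membranes and guards against ferroptosis, measured 754, 767 and 936 CPM in shCon and 657, 490 and 456 CPM in shSOX4. All 3 shSOX4 libraries were lower (log2 fold change -0.62, SE 0.172, edgeR adjusted p = 0.0145), and the call was absent without shSOX4 2 and without shSOX4 3 (-0.56 to -0.50, edgeR adjusted p from 0.0735 to 0.0784). Per length GPX4 had the highest level of the family, with means of 956 FPKM in shCon and 629 FPKM in shSOX4, and GPX8 had 8.0 and 19.7 FPKM. GPX1, the abundant cytosolic form, measured 299, 316 and 456 CPM in shCon and 523, 378 and 415 CPM in shSOX4. With shCon 3 inside the shSOX4 range, it was not called (log2 fold change 0.30, SE 0.19, edgeR adjusted p = 0.239), but without shCon 3 it was (0.52, edgeR adjusted p = 0.027). GPX3, the secreted form, measured 37.3, 43.4 and 52.9 CPM in shCon and 39.0, 40.2 and 31.2 CPM in shSOX4 and GPX7 measured 2.34, 3.01 and 3.18 CPM in shCon and 1.94, 1.64 and 2.35 CPM in shSOX4, neither called (log2 fold changes -0.27 and -0.52, edgeR adjusted p = 0.284 and 0.203).

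**Figure D3:**
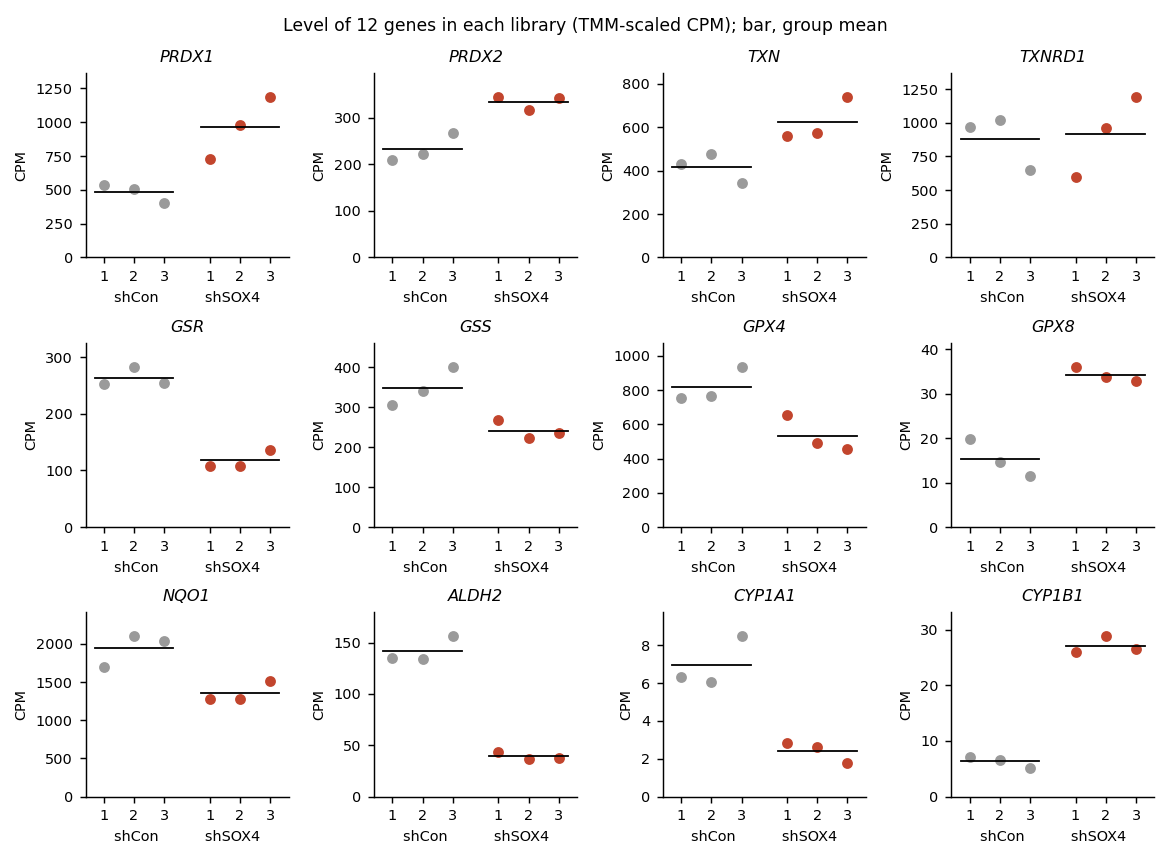
TMM-scaled CPM (y axis, from 0) of 12 genes in each library, shCon 1 to 3 in grey and shSOX4 1 to 3 in red, with a bar at each group mean. PRDX1, PRDX2, TXN, GPX8 and CYP1B1 were higher in all 3 shSOX4 libraries and GSR, GSS, GPX4, NQO1, ALDH2 and CYP1A1 were lower, while TXNRD1 overlapped, with shCon 3 and shSOX4 1 low.

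Of the 15 glutathione transferases, 5 rose and 3 fell, and GSTT2B and GSTT2 rose by more than 2 on the log2 scale. GSTT2B, a theta-class transferase, measured 1.97, 3.12 and 2.19 CPM in the shCon libraries and 11.8, 9.97 and 11.7 CPM in the shSOX4 libraries. No shSOX4 value came near a shCon value (log2 fold change 2.20, SE 0.247, edgeR adjusted p = 1.98e-05). Its near-identical neighbour GSTT2 measured 0.438, 0.43 and 0.466 CPM in shCon and 2.85, 1.70 and 1.04 CPM in shSOX4, under 1 CPM in all 3 shCon libraries (log2 fold change 2.06, SE 0.433, edgeR adjusted p = 0.00298). Since reads of such close copies can be divided either way, their counts were also summed, which gave 2.41, 3.55 and 2.65 CPM in shCon and 14.7, 11.7 and 12.7 CPM in shSOX4 (log2 fold change 2.18, SE 0.235, edgeR adjusted p = 1.31e-05). MGST3, a microsomal transferase with peroxidase activity, measured 135, 161 and 158 CPM in shCon and 288, 209.8 and 209 CPM in shSOX4, and MGST2, a relative that can make leukotriene C4, measured 13.7, 14.7 and 13.7 CPM in shCon and 22.9, 19.3 and 22.1 CPM in shSOX4. Both were higher in all 3 shSOX4 libraries (0.64 and 0.61 on the log2 scale, edgeR adjusted p = 0.012 and 0.0203), while MGST2 was not called without shCon 1, without shCon 2 or without shSOX4 3 (0.59 to 0.65, edgeR adjusted p from 0.0594 to 0.062). MGST1, the remaining microsomal form, had the highest level per length of the family (means of 364.5 FPKM in shCon and 245 FPKM in shSOX4) and went the other way. It measured 358, 378 and 318 CPM in shCon and 216, 248 and 243 CPM in shSOX4, with no overlap (log2 fold change -0.58, SE 0.152, edgeR adjusted p = 0.0108), and was not called without shCon 2 (-0.52, edgeR adjusted p = 0.0609).

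GSTO2, an omega-class transferase, measured 74.8, 88.7 and 85.4 CPM in shCon and 68.4, 49.7 and 47.9 CPM in shSOX4, and GSTA4, which conjugates the lipid aldehyde 4-hydroxynonenal, measured 22.3, 20.4 and 13.9 CPM in shCon and 12.6, 12.3 and 10.2 CPM in shSOX4. Both fell (-0.58 and -0.69 on the log2 scale, edgeR adjusted p = 0.0253 and 0.0258). None of the family's 3 falls was called without shCon 2, and only MGST1 was called as a fall without shSOX4 2 or without shSOX4 3. In the fits that lost them GSTO2 had log2 fold changes of -0.53 to -0.48, edgeR adjusted p from 0.0883 to 0.13, and GSTA4, which was also not called without shCon 1, had -0.73 to -0.55, edgeR adjusted p from 0.0725 to 0.109. On log2(FPKM + 1) neither was called (-0.47 and -0.59, limma adjusted p = 0.062 and 0.0542). GSTP1 measured 167, 199 and 250.3 CPM in shCon and 266, 226 and 219 CPM in shSOX4. The prostate's best known transferase gene was thus expressed in every library, and its groups overlapped (log2 fold change 0.20, SE 0.175, edgeR adjusted p = 0.389, 95% interval -0.17 to 0.58). GSTO1 (153, 186 and 183.5 CPM in shCon and 224, 229 and 236 CPM in shSOX4) was higher in all 3 shSOX4 libraries without a call by edgeR (log2 fold change 0.40, SE 0.153, edgeR adjusted p = 0.0587). It was called as higher by DESeq2 (0.40, DESeq2 adjusted p = 0.0395), on log2(FPKM + 1) (0.39, limma adjusted p = 0.0363), with scaling by the total count (0.40, edgeR adjusted p = 0.0329) and without shCon 3 (0.44, edgeR adjusted p = 0.0424). GSTK1, GSTM1, GSTM2, GSTM4 and GSTZ1 had log2 fold changes from -0.43 to 0.02, none called, although GSTK1 was with scaling by the total count (-0.38, edgeR adjusted p = 0.0487).

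GSTM3, a mu-class transferase (ENSG00000134202), was the case in which the deposited scales disagreed. From the counts it measured 65.1, 56.5 and 50.8 CPM in the shCon libraries and 149.5, 179 and 188 CPM in the shSOX4 libraries, the groups being far apart (log2 fold change 1.58, SE 0.17, edgeR adjusted p = 1.23e-05). The deposited FPKM, a level per length made from the same libraries, was 59.9, 19.8 and 41.4 in shCon and 34.5, 43.3 and 43.2 in shSOX4. On that scale shCon 1 was the highest library and shCon 2 the lowest, the group means were 40.4 and 40.4 FPKM, and no change was called (0.13 on log2(FPKM + 1), limma adjusted p = 0.782). The ratio of CPM to FPKM for this gene varied 4.01-fold between libraries. With the 4 mu-class genes summed, the level was 152, 144.7 and 165 CPM in shCon and 235, 260 and 261 CPM in shSOX4 (log2 fold change 0.71, SE 0.150, edgeR adjusted p = 0.00317). Over the 90 members, the log2 ratio of the groups differed by more than 0.5 between the scales in 2, GSTM3 and SOD2, and the ratio of CPM to FPKM varied more than 1.5-fold between libraries in 3, the third being AKR1C2.

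**Figure D4:**
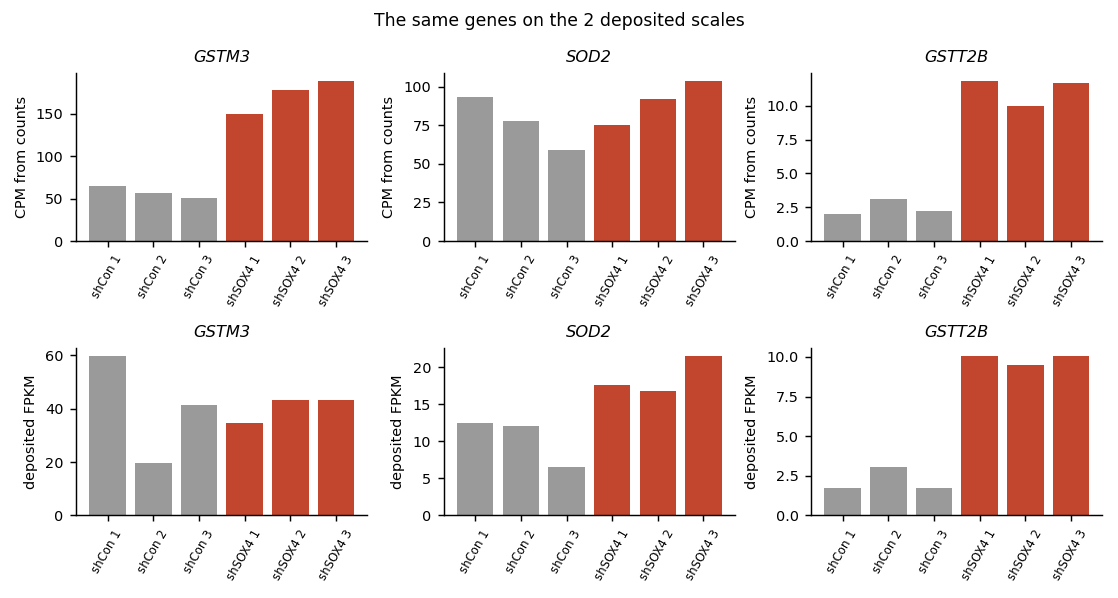
GSTM3, SOD2 and GSTT2B in each library as CPM from the counts (top) and as the deposited FPKM (bottom), both axes from 0. GSTM3 was at 50.8 to 65.1 CPM in shCon and 149.5 to 188 CPM in shSOX4, yet at 19.8 to 59.9 and 34.5 to 43.3 FPKM; SOD2 overlapped in CPM and not in FPKM, and GSTT2B was higher in all 3 shSOX4 libraries on both scales.

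SOD2, the mitochondrial superoxide dismutase, measured 93.5, 77.5 and 59.2 CPM in the shCon libraries and 75.2, 91.9 and 103.5 CPM in the shSOX4 libraries. These groups overlapped (log2 fold change 0.23, SE 0.195, edgeR adjusted p = 0.376). In FPKM the gene stood at 12.5, 12.0 and 6.48 in shCon and 17.6, 16.9 and 21.6 in shSOX4, separate groups, and limma on log2(FPKM + 1) gave 0.84 with an adjusted p of 0.0181. SOD1, the cytosolic enzyme and by FPKM the most highly expressed of the 3 (means of 370.4 in shCon and 410.4 in shSOX4), measured 357, 416 and 381 CPM in shCon and 411, 409 and 452 CPM in shSOX4. Catalase, CAT, which breaks down hydrogen peroxide in peroxisomes, measured 39.9, 35.8 and 25.7 CPM in shCon and 26.5, 33.1 and 38.4 CPM in shSOX4. Neither SOD1 nor CAT was called (log2 fold changes 0.14 and -0.05, edgeR adjusted p = 0.486 and 0.872), and their 95% intervals ran from -0.17 to 0.46 and from -0.50 to 0.40.

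NQO1, the quinone reductase often used as a readout of NRF2, had the highest level per length of its family (means of 807 FPKM in shCon and 602 FPKM in shSOX4). It measured 1698, 2100.4 and 2040.2 CPM in the shCon libraries and 1274, 1279 and 1509.9 CPM in the shSOX4 libraries. The highest shSOX4 library, shSOX4 3, stayed under the lowest shCon library (log2 fold change -0.52, SE 0.147, edgeR adjusted p = 0.0153), and the call was absent without shCon 2 and without shSOX4 2 (-0.48 to -0.46, edgeR adjusted p from 0.0718 to 0.0841). NQO2, its relative, measured 62.8, 70.1 and 67.1 CPM in shCon and 80.0, 84.2 and 90.0 CPM in shSOX4, higher in all 3 shSOX4 libraries but not called (log2 fold change 0.35, SE 0.158, edgeR adjusted p = 0.105). HMOX1, the inducible heme oxygenase, measured 46.1, 47.4 and 69.3 CPM in shCon and 72.7, 65.2 and 84.9 CPM in shSOX4. The high shCon 3 value overlapped the shSOX4 range (log2 fold change 0.45, SE 0.196, edgeR adjusted p = 0.0888). Without shCon 3 the gene was called (0.67, edgeR adjusted p = 0.00976), as it was on log2(FPKM + 1) (0.46, limma adjusted p = 0.0487). HMOX2, the constitutive form, measured 84.5, 111 and 122 CPM in shCon and 149.9, 136 and 164 CPM in shSOX4 and rose (log2 fold change 0.50, SE 0.173, edgeR adjusted p = 0.0388), a call absent without shCon 1, shCon 2, shSOX4 2 or shSOX4 3 (0.36 to 0.57, edgeR adjusted p from 0.0735 to 0.149). The number of genes of this family that rose was thus 0 in those 4 fits, 1 with all libraries, 2 without shCon 3, and 3 without both shCon 3 and shSOX4 1.

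Of the aldo-keto reductases, which reduce aldehydes and ketones with NADPH, AKR1C2 measured 3.04, 3.01 and 3.29 CPM in the shCon libraries and 0.469, 1.18 and 0.476 CPM in the shSOX4 libraries. The shCon libraries were close together and all above the shSOX4 libraries, of which shSOX4 2 was highest (log2 fold change -2.14, SE 0.394, edgeR adjusted p = 0.00125). Its close relatives AKR1C1 (8.13, 6.75 and 8.40 CPM in shCon and 3.87, 7.03 and 4.61 CPM in shSOX4) and AKR1C3 (14.2, 10.9 and 9.24 CPM in shCon and 8.18, 11.6 and 8.57 CPM in shSOX4) were not called (log2 fold changes -0.59 and -0.28, edgeR adjusted p = 0.0913 and 0.363). Summed, the 3 AKR1C genes stood at 25.4, 20.7 and 20.9 CPM in shCon and 12.5, 19.8 and 13.7 CPM in shSOX4, lower in each shSOX4 library but short of the threshold (log2 fold change -0.54, SE 0.213, edgeR adjusted p = 0.0629). These enzymes convert steroid hormones and are alike in sequence, so the division of reads between them is uncertain. AKR1E2 measured 14.6, 18.8 and 20.6 CPM in shCon and 11.1, 8.14 and 9.70 CPM in shSOX4 and fell (log2 fold change -0.90, SE 0.212, edgeR adjusted p = 0.00592). AKR1B1, aldose reductase, had the highest level per length of the family (means of 416.5 FPKM in shCon and 520.2 FPKM in shSOX4). It measured 571, 652 and 702 CPM in shCon and 915, 750.5 and 723 CPM in shSOX4, all 3 shSOX4 values being higher without a call (log2 fold change 0.31, SE 0.156, edgeR adjusted p = 0.137). AKR1A1 and AKR1B10 were not called either (log2 fold changes -0.17 and -0.42), and without shSOX4 2 AKR1C1 was called too (-0.87, edgeR adjusted p = 0.0393).

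ALDH2, the mitochondrial enzyme that clears acetaldehyde and lipid aldehydes (ENSG00000111275), showed the clearest fall of all members by adjusted p. It measured 135, 134 and 156 CPM in the shCon libraries and 43.2, 36.3 and 37.9 CPM in the shSOX4 libraries. The shSOX4 libraries lay close together, far under the shCon libraries (log2 fold change -1.86, SE 0.166, edgeR adjusted p = 2.26e-06). ALDH1B1, a related mitochondrial enzyme, measured 130.2, 139.5 and 117 CPM in shCon and 71.7, 78.5 and 85.8 CPM in shSOX4, and ALDH1A3, which makes retinoic acid from retinal, measured 21.3, 20.6 and 16.5 CPM in shCon and 7.83, 11.6 and 11.3 CPM in shSOX4. Both fell without overlap (-0.71 and -0.93 on the log2 scale, edgeR adjusted p = 0.00445 and 0.00528). ALDH3B1, which oxidises lipid aldehydes, measured 213, 229.9 and 308 CPM in shCon and 181, 137.5 and 101 CPM in shSOX4, and had the highest level per length of the family (means of 89.9 FPKM in shCon and 51.8 FPKM in shSOX4). ALDH4A1, an enzyme of proline breakdown, measured 66.5, 63.9 and 85.9 CPM in shCon and 50.8, 43.6 and 32.2 CPM in shSOX4. They fell as well (-0.84 and -0.77, edgeR adjusted p = 0.009 and 0.0105), and in both shSOX4 3 was the lowest library and shCon 3 the highest; without shSOX4 3 ALDH4A1 was not called (-0.60, edgeR adjusted p = 0.0508), leaving 4 falls.

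The other 9 aldehyde dehydrogenases were not called, with log2 fold changes from -0.52 (ALDH1L2) to 0.56 (ALDH3A1). ALDH18A1, which acts in the opposite direction to ALDH4A1 by making the precursor of proline, measured 127, 139 and 144 CPM in shCon and 132, 131 and 154 CPM in shSOX4, with a 95% interval of the log2 fold change from -0.31 to 0.35. ALDH3A2, the fatty aldehyde dehydrogenase, measured 65.4, 65.3 and 36.5 CPM in shCon and 32.8, 50.6 and 56.8 CPM in shSOX4, low in shCon 3 and shSOX4 1. ALDH16A1 measured 35.8, 35.4 and 57.5 CPM in shCon and 47.5, 37.3 and 28.8 CPM in shSOX4, high in those same libraries. Summed per length over the 14 genes, the family stood at 296, 303 and 291 FPKM in shCon and 218, 223 and 204 FPKM in shSOX4.

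Of the 14 cytochromes P450, 2 rose and 6 fell. CYP1B1, which oxidises oestrogens and aromatic hydrocarbons, measured 7.14, 6.61 and 5.19 CPM in the shCon libraries and 25.9, 28.8 and 26.6 CPM in the shSOX4 libraries. The shSOX4 libraries were close to each other and far above shCon (log2 fold change 2.10, SE 0.202, edgeR adjusted p = 4.27e-06). CYP1A1, its relative with overlapping substrates and the same textbook regulator, measured 6.35, 6.05 and 8.48 CPM in shCon and 2.82, 2.60 and 1.76 CPM in shSOX4. It moved the other way, with every shSOX4 library under every shCon library (log2 fold change -1.54, SE 0.273, edgeR adjusted p = 0.000949; -0.88 on log2(FPKM + 1), a scale that understates changes of low genes). CYP11A1, the enzyme that starts steroid hormone synthesis from cholesterol, measured 3.66, 3.52 and 4.14 CPM in shCon and 29.2, 16.6 and 13.4 CPM in shSOX4. The groups were far apart, with shSOX4 1 above the other shSOX4 libraries (log2 fold change 2.38, SE 0.28, edgeR adjusted p = 3.01e-05), and per length it had the highest mean of the family (1.76 FPKM in shCon and 9.30 FPKM in shSOX4).

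The 6 P450 genes that fell included enzymes of sterol, vitamin D and retinoic acid metabolism, while other P450 genes of sterol and vitamin D metabolism rose or were not called. CYP27A1, the mitochondrial sterol 27-hydroxylase of bile acid synthesis, measured 12.6, 12.0 and 15.8 CPM in shCon and 6.89, 5.60 and 3.72 CPM in shSOX4, and CYP27B1, which makes the active form of vitamin D, measured 13.6, 11.6 and 12.4 CPM in shCon and 8.48, 6.10 and 4.67 CPM in shSOX4. Both groups of values were separate (-1.31 and -0.96 on the log2 scale, edgeR adjusted p = 0.00145 and 0.00761). CYP24A1, which breaks vitamin D down, measured 0.942, 0.967 and 0.554 CPM in shCon and 1.29, 2.44 and 1.16 CPM in shSOX4. It was under 1 CPM in all 3 shCon libraries and above it in all 3 shSOX4 libraries without a call (log2 fold change 0.98, SE 0.408, edgeR adjusted p = 0.0779). Without shSOX4 1 it was called (1.13, edgeR adjusted p = 0.0481). CYP2R1, which makes 25-hydroxyvitamin D, measured 6.13, 5.35 and 3.32 CPM in shCon and 5.37, 7.09 and 7.65 CPM in shSOX4, with overlap (log2 fold change 0.44, SE 0.267, edgeR adjusted p = 0.221). CYP26B1, which breaks down retinoic acid, measured 14.5, 15.8 and 15.9 CPM in shCon and 9.12, 9.13 and 8.30 CPM in shSOX4 and fell (log2 fold change -0.80, SE 0.191, edgeR adjusted p = 0.00649), by 0.46 on log2(FPKM + 1), and it was not called on log2(FPKM + 0.1) (-0.61, limma adjusted p = 0.0529). CYP2S1 (22.4, 16.3 and 22.6 CPM in shCon and 11.8, 10.2 and 9.73 CPM in shSOX4) and CYP4F11, a fatty acid hydroxylase (5.48, 4.46 and 4.43 CPM in shCon and 2.17, 1.70 and 1.07 CPM in shSOX4), completed the 6 that fell (-0.95 and -1.54, edgeR adjusted p = 0.00345 and 0.00231). The 6 falls and 2 rises were called in each fit with 1 library left out. CYP2J2, CYP2U1, CYP4V2 and CYP20A1 were not called (log2 fold changes -0.71, 0.14, -0.78 and 0.29). UGT8, which attaches galactose to ceramide in myelin lipid synthesis, measured 5.91, 3.90 and 3.91 CPM in shCon and 5.60, 5.48 and 4.94 CPM in shSOX4, with overlapping groups (log2 fold change 0.22, SE 0.252, edgeR adjusted p = 0.525).

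The 250 bases before the transcription start are shown for 4 of the called genes, chosen because they hold a searched core motif and stand for opposite directions: GSTM3 and CYP11A1, which rose by the counts, and CYP1A1 and GSTA4, which fell. The sequences are RefSeq's for GRCh38.p14, written 5′ to 3′ on the gene's strand and ending at the base before the start, with motif matches in capitals.
GSTM3 chr1:109741039-109741288 (-): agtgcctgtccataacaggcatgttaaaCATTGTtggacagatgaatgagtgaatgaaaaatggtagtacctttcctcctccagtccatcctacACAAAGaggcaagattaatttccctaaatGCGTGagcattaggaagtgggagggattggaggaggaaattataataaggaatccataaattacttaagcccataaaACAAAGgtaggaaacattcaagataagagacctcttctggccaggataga
CYP11A1 chr15:74367647-74367896 (-): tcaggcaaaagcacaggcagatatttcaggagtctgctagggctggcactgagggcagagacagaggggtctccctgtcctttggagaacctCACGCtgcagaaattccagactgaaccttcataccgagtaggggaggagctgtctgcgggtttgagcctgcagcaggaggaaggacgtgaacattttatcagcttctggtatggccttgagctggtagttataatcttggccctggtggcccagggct
CYP1A1 chr15:74725529-74725778 (-): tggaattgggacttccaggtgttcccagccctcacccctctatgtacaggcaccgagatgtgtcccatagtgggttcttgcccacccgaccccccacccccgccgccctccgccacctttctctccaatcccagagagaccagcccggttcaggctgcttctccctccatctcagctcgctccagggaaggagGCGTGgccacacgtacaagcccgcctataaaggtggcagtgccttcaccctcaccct
GSTA4 chr6:52995285-52995534 (-): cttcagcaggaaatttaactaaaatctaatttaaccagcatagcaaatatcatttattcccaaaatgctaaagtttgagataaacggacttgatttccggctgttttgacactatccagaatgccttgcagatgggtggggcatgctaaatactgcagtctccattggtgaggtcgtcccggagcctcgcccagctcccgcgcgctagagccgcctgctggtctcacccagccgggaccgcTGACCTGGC
The motifs were TGACNNNGC (the core of the antioxidant response element, the NRF2 site), GCGTG (the core of the dioxin response element, the aryl hydrocarbon receptor site) and ACAAAG and ACAATG (cores bound by SOX proteins), each searched on both strands, so that CATTGT in GSTM3 is ACAATG on the other strand and CACGC in CYP11A1 is GCGTG on the other strand; no matches overlapped in these windows.

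GSTM3 held 2 matches to ACAAAG, 1 to ACAATG and 1 to GCGTG, CYP11A1 and CYP1A1 held 1 to GCGTG each, and GSTA4 held 1 to TGACNNNGC. A promoter was given for 72 of the 90 members, 104 promoters in all. TGACNNNGC was in 10.6% of these and in 10.9% of all 35116 promoters, GCGTG in 41.3% and 32.2%, ACAAAG in 4.81% and 13.7%, and ACAATG in 7.69% and 9.29%. So the antioxidant core was about as frequent in the promoters of members as in all promoters. GCGTG was more frequent, and ACAAAG and ACAATG were less frequent. These shares were not tested. Genes with TGACNNNGC in this window were CYP4F11, CYP4V2, GCLM, GSTA4, GSTM1, GSTO1, GSTP1, TXNDC5, TXNL1 and TXNRD1, of which 2 fell and none rose. GCGTG was before 34 members, of which 6 rose and 5 fell. Over all features 17% rose and 15.8% fell, and genes with either motif were not tested against these shares. A match is a description of letters and not a shown binding site, and its absence says only that these letters are not in this window.

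The regulators and partners of these enzymes were described through 6 lists of genes that are not members, some genes standing in more than 1 list. Over all features 17% rose and 15.8% fell, and no list was tested against these shares. The shares that rose and fell were 13.3% and 12.2% without shCon 2, and 15.3% and 13.6% without shCon 3. Without shSOX4 1, 2 or 3 the shares that rose were 19.6%, 10.4% and 12.4%, and those that fell 17.1%, 8.12% and 9.53%. Of 26 listed NRF2 regulators and targets with a row, 1 rose and 8 fell (median log2 fold change -0.29, against -0.01 over all features). No gene of this list rose when shCon 2, shSOX4 2 or shSOX4 3 was left out, with scaling by the total count or without the unannotated transcripts, and 2 did without shSOX4 1 or with DESeq2. MAFG, a small MAF partner of NRF2, measured 111, 113 and 130 CPM in shCon and 63.5, 57.3 and 61.4 CPM in shSOX4 and fell (log2 fold change -0.96, SE 0.159, edgeR adjusted p = 0.000598), as did its relative MAFF (-0.98, edgeR adjusted p = 0.00213) and the carbonyl reductase CBR1 (-0.78, edgeR adjusted p = 0.0032). NFE2L2, the gene of NRF2, measured 14.8, 12.4 and 9.18 CPM in shCon and 16.4, 22.4 and 15.0 CPM in shSOX4 and was not called (0.56, edgeR adjusted p = 0.0736). Of 13 NADPH suppliers, which feed the thioredoxin and glutathione reductases, 1 rose and 4 fell (median -0.24; 2 fell without shCon 2, shSOX4 2 or shSOX4 3). POR was the gene of this list that rose and FDXR was among those that fell, both being partners of the P450 enzymes as well.

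Among 21 genes of glutathione supply and turnover 6 rose and 4 fell (median log2 fold change -0.09), beside 17% and 15.8% of all features. The rises numbered 3 when shCon 2 or shCon 3 was left out and 2 when shSOX4 2 or shSOX4 3 was, and the falls 2 when shCon 2 was left out and 1 when shSOX4 2 or shSOX4 3 was. With scaling by the total count 3 rose, and on log2(FPKM + 1) 3 of the 17 genes tested did. Of all features 15% and 13.8% rose in those fits. GLRX, glutaredoxin, which uses glutathione to reduce protein disulfides, measured 14.1, 13.8 and 8.89 CPM in shCon and 39.0, 43.2 and 39.1 CPM in shSOX4 and rose (log2 fold change 1.72, SE 0.21, edgeR adjusted p = 4.39e-05). ANPEP, an aminopeptidase that can cleave glutathione's breakdown products, stood at 0.376 to 0.729 CPM in shCon and 3.5 to 3.93 CPM in shSOX4 and was called higher (2.58, edgeR adjusted p = 0.000127), having likewise entered the table only through the group where it was high. CBS, which feeds cysteine synthesis, fell (-1.01, edgeR adjusted p = 0.00368). SLC7A11, the cystine importer, was not called (0.38, edgeR adjusted p = 0.274).

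Of 18 xenobiotic receptors and P450 partners 3 rose and 6 fell (median log2 fold change -0.27; 2 fell without shSOX4 2 or without shSOX4 3). AHRR, the repressor of the aryl hydrocarbon receptor and itself a textbook target of it, measured 2.63, 3.31 and 2.54 CPM in shCon and 10.0, 12.1 and 10.3 CPM in shSOX4 and rose (log2 fold change 1.94, SE 0.23, edgeR adjusted p = 3.45e-05), while the receptor AHR was not called (-0.24, edgeR adjusted p = 0.438) and neither was its target TIPARP (0.66, edgeR adjusted p = 0.0817). Of the targets of this receptor named here and above, CYP1B1 and AHRR thus rose, CYP1A1 fell and TIPARP was not called. POR, which gives electrons to microsomal P450 enzymes, measured 89.0, 76.5 and 119 CPM in shCon and 186, 154 and 148 CPM in shSOX4 and rose (log2 fold change 0.78, SE 0.186, edgeR adjusted p = 0.00626). FDXR, which serves mitochondrial P450 enzymes such as CYP11A1 and CYP27A1, measured 66.8, 58.6 and 90.7 CPM in shCon and 49.0, 33.3 and 29.3 CPM in shSOX4 and fell (log2 fold change -0.95, SE 0.225, edgeR adjusted p = 0.00589).

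In the retinoid list, whose pathway includes ALDH1A3 and CYP26B1, 5 of 17 rose and 3 fell (median log2 fold change -0.11). STRA6, the receptor that takes up retinol, measured 1.53, 1.88 and 2.65 CPM in shCon and 19.5, 15.0 and 17.1 CPM in shSOX4 and rose (log2 fold change 3.10, SE 0.254, edgeR adjusted p = 1.04e-06), as did RARRES1 (1.71, edgeR adjusted p = 0.000182). RBP4, the retinol carrier, stood at 0.175, 0.323 and 0.175 CPM in shCon and 2.70, 1.73 and 1.70 CPM in shSOX4 and was called higher (3.18, edgeR adjusted p = 0.000135), but it entered the table only through the group where it was high. CRABP2, the carrier of retinoic acid in the cell, fell (-1.14, edgeR adjusted p = 0.000527). Of 20 other detoxification enzymes 1 rose and 4 fell (median 0.00). The 1 that rose was MAOB, a monoamine oxidase, at 5.45, 3.49 and 4.58 CPM in shCon and 36.7, 40.6 and 45.7 CPM in shSOX4 (log2 fold change 3.18, SE 0.222, edgeR adjusted p = 2.22e-07), and the falls included EPHX2, soluble epoxide hydrolase (-1.38, edgeR adjusted p = 0.000359), and the carboxylesterase CES2 (-1.02, edgeR adjusted p = 0.000621).

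Some members also varied with the libraries that stood apart. ALDH3A2, GCLC, PRDX3, TXNDC12 and TXNRD1 were lower by at least 0.5 on the log2 scale in both shCon 3 and shSOX4 1 than in the other libraries of their groups, and ALDH16A1 was higher by as much. TXNDC12, a thioredoxin-like protein of the endoplasmic reticulum, measured 110.4, 91.4 and 51.3 CPM in shCon and 60.8, 98.6 and 112 CPM in shSOX4. Its means differed little between the groups (0.10, edgeR adjusted p = 0.796). Without shCon 3 and shSOX4 1 all 36 calls were made in the same direction and 6 more members were called, while the share of all features called went from 32.8% to 40.9%. The 6 were GPX1, GSTO1, HMOX1 and NQO2 upward, and TXNIP and TXNRD3 downward. The authors' deposited table called 38 members, 17 up and 21 down, which included all 36 called here, each in the same direction.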

How the data were processed

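RNA-seq was measured in 6 DU145 libraries, 3 carrying a control hairpin and 3 a hairpin against SOX4, grouped by their titles. The 4 ATAC-seq libraries of the series were not analysed here. The deposited table holds, per the file headers, a read count and an FPKM value for each gene and library, and the authors' log2 fold change and FDR for shSOX4 against shCon. Every feature in it had at least 1 CPM in at least 3 libraries, and 1116 of the 13527 were unannotated transcripts. HISAT2, STAR, Bowtie2, MACS2 2.1.1 and deepTools 2.07 with build hg19 are named in the submitters' processing notes without their roles. The sources used here do not give the counter, the annotation or the strand setting, so reads of close copies and of antisense partners may be divided between genes in ways that cannot be seen.

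Counts were tested with edgeR 4.0.16 (R 4.3.3) by the quasi-likelihood test with TMM scaling, its default filter on low counts and group as the only term, over all 13527 features with Benjamini-Hochberg adjustment. A gene was called at an adjusted p under 0.05. The SE of a log2 fold change is its size divided by the square root of F, and the 95% interval uses the fit's degrees of freedom. Alternatives were DESeq2 1.42.0, limma 3.58.1 (on counts with voom and on log2 of FPKM plus 1 or 0.1 for genes with a mean of at least 1 FPKM), other scalings and filters, leaving out each library, a replicate block, and testing for changes beyond 1.5-fold. Summed counts of close copies of GSTT2 and GSTM genes were added after seeing the data. Scripts were checked on simulated counts.

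Genes named with values were SOX4, all called members changed at least 2-fold, in each family the 2 called members with the smallest adjusted p and the one with the highest mean FPKM, the 3 genes with the smallest adjusted p in each other list, and members needed to account for a family's count. Further genes of those lists (NFE2L2, SLC7A11, AHR, TIPARP, CRABP2) and the genes shown with their promoters were picked after their values were seen. Some genes that this rule selects are not reported here. The members and lists were chosen with earlier results of these data known.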

Additional observations from a re-analysis of the deposited data

How the results depend on the processing

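The direction of all 36 member calls was the same in every fit run. Of the other 54 members, 18 took the opposite sign in at least 1 fit and none was called with it. They included TXNRD1, GCLC, CAT and TXNDC12, whose changes were near 0, and PRDX5, at 0.17 with all libraries, -0.013 without shSOX4 1 and 0.32 without shCon 3. All 36 calls were made with DESeq2, limma-voom, RLE scaling, no filter and the stricter filter, 35 with total-count scaling, and 28 and 27 with limma on log2 of FPKM plus 1 and plus 0.1, where GSTT2, AKR1C2 and CYP4F11 were under the minimum mean FPKM and not tested. Leaving out 1 library gave 8 to 18 members that rose and 15 to 21 that fell. In those fits 10.4% to 19.6% of all features rose and 8.12% to 17.1% fell. Without both shCon 3 and shSOX4 1 there were 20 and 22 members, beside 21.4% and 19.5% of all features. Tested against a 1.5-fold change, 6 members rose and 6 fell (6.67% each), beside 5.78% and 3.05% of all features. The fall of SOX4 ranged from -1.02 to -0.71 with 1 library left out. It was -0.81 (limma adjusted p = 0.0557) on log2 of FPKM plus 0.1, and -0.89 (edgeR adjusted p = 0.208) against a 1.5-fold change.

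With the replicate block 10 members rose, beside 13.5% of all features. In that fit 27 of the 36 calls were made, and 24.9% of all features were called, against 32.8% without the block. Same-numbered libraries had correlations of -0.29, 0.159 and -0.293, and not every library correlated best with its own number. The highest correlation, 0.495, was between shCon 3 and shSOX4 1. Values were centred within each group of 3 libraries before correlating. The correlations therefore cannot decide whether same-numbered libraries were prepared together. No sum of UGT1A genes was made, as no row matched. RLE scaling moved the median log2 fold change of all features by 0.004 and total-count scaling moved it by -0.001. For limma on log2(FPKM + 1), which is another measure and not only another scaling, the shift was 0.013. Members near 1 CPM, such as GSTT2, AKR1C2, CYP24A1, CYP4V2 and TXNDC16, rest on few counts, and with 3 libraries per group small changes could not be told from the spread.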
